A study of Mus musculus with 8 samples.

Results

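Tropomyosin, caldesmon and their thin-filament partners are a group of 7 genes, chosen by name and not by their values: Tpm1, Tpm2, Tpm4, Cald1, Synpo2, Pln and Mylk4. All 7 are among the 11447 gene identifiers in the tables. They were followed in GFP-positive smooth muscle cells sorted from digested mouse ascending aorta and profiled with the 10x Genomics Chromium droplet system. The 8 libraries came from 2 genotypes on 4 diets, with 1 library for each combination. KO mice (genotype TGFBetaRiSMC-Apoe in the labels) lacked Tgfbr2, a receptor subunit for TGF-beta, in smooth muscle, on an Apoe-deficient background. Apoe mice carried the Apoe deficiency alone, which all 8 libraries share and which raises plasma cholesterol. Both genotypes were studied on the diet labelled ND and after 1, 2 and 4 months of high fat diet (HFD), called 1M, 2M and 4M here. The promoter that drives the smooth muscle deletion or the GFP, the ages of the mice and the number of animals per library are not given in the sources used here. Since each group has 1 library, the tests below take their error from how far libraries lie off an additive or straight-line model, and a difference within a single diet has no replicate check.

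In smooth muscle the thin filament is a polymer of actin along which tropomyosin dimers lie end to end. Caldesmon binds actin, tropomyosin and myosin and restrains the myosin motor, while phosphorylation of the myosin light chain by calcium- and calmodulin-dependent kinases switches contraction on. Synaptopodin-2 links actin to alpha-actinin and filamin at dense bodies, the anchor points of thin filaments. Calcium is taken back into the sarcoplasmic reticulum by the pump Atp2a2 (SERCA2), which phospholamban, the product of Pln, inhibits. TGF-beta signalling is known to favour contractile gene expression in smooth muscle cells.

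The promoters of the 7 genes are shown for those the results turn on, as RefSeq gives them on GRCm38.p6, as the 250 bases before the start, on the gene's own strand. Capitals mark the TEF-binding MCAT box CATTCC, which reads GGAATG on the other strand, and the SMAD-binding box CAGACA. Tpm1 lies on the minus strand (chr9:67049214-67049463), as do Tpm2 (chr4:43523555-43523804) and Mylk4 (chr13:32783965-32784214). Cald1 lies on the plus strand, and its window with both boxes is the first of a pair (chr6:34598254-34598503).
Tpm1: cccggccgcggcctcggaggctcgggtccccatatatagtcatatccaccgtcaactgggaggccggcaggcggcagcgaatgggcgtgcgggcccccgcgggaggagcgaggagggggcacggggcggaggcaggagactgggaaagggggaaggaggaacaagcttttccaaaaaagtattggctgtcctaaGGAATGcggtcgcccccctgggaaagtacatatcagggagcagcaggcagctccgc
Tpm2: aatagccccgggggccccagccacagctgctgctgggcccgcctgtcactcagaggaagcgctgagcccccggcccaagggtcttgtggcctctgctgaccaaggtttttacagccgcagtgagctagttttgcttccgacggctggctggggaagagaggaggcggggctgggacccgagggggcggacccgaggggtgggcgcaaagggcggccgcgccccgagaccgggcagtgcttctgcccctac
Cald1: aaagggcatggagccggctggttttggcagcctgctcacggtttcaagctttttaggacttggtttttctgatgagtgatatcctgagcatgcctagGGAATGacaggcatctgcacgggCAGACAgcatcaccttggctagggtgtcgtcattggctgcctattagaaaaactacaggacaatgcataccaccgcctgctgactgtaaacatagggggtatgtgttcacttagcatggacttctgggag
Mylk4: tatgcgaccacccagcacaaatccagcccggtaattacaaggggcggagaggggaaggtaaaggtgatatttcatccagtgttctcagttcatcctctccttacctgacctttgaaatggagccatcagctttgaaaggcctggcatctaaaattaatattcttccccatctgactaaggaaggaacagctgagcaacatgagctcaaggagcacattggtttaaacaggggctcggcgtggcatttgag
All 7 genes matched a promoter, with 8 windows in all. The MCAT box was found on either strand in the windows of 2 genes, Tpm1 and Cald1, against 14.36% of 27025 genes with a window of this length. The box CAGACA was found in 1 gene, Cald1, against 19.33% of genes. The CArG box, the motif bound by serum response factor, was searched only in its strict form CCWWWWWWGG, where W is A or T. This form was found in 0 of the 8 windows and in 1.467% of all 32851 windows, and forms with a mismatch were not searched. The motifs searched did not overlap in these windows, and a match or its absence describes these letters only.

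The libraries held from 1127 (KO ND) to 2659 cells (Apoe 2M) and from 9407155 (Apoe 4M) to 19719335 total UMIs (Apoe 2M), with a median per cell from 6966 (Apoe 4M) to 10988 UMIs (KO 4M). Any pair of libraries shared at most 9 barcodes. The KO 4M library stood apart from the rest. The summed level of 8 smooth muscle markers was 1133 CPM (UMIs for each 1000000 in the library) in KO 4M and 17191 CPM in Apoe 4M, and it lay between 25096 and 33220 CPM in the other 6 libraries. In KO 4M the smooth muscle markers Des and Myocd were listed at 0, while the other 7 libraries listed all 8. A list of 6 chondrocyte markers summed to 23654 CPM in KO 4M, 3905 CPM in Apoe 4M, 1120 CPM in KO 2M and at most 74.2 CPM elsewhere. The 6 fibroblast markers summed to 13840 CPM in KO 4M, 5227 CPM in Apoe 4M and 3771 CPM in KO 2M. In the other 5 libraries they summed to 724 to 999 CPM. The KO 2M sum came mostly from Lum (1253 CPM) and Dcn (2098 CPM). Its Col1a1 (412 CPM) was the lowest of all libraries, and Dpt and Pi16 were listed at 0. KO 2M, which stays in the fits without 4M, thus also held more of the chondrocyte list and of Lum and Dcn. The part of these shifts in the values of the 7 genes was not tested, and the fits are given with and without the 4M libraries.

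Tpm2, which encodes the beta chain that pairs with alpha-tropomyosin in contractile filaments, gave the most UMIs of the 7 genes in every library but KO 4M. KO cells held 6368 CPM on ND, 5695 at 1M, 5617 at 2M and 265 at 4M. Apoe cells held 4412, 4270, 3955 and 2955 CPM on the same diets. Tpm2 was therefore higher in KO on the first 3 diets, by 1.44-fold (95% interval 1.43 to 1.46) on ND, 1.33-fold at 1M and 1.42-fold at 2M, and 11.2-fold lower (10.8 to 11.5) in KO at 4M. Intervals cover counting error only, and the median ratio of all genes at 4M was 0.843, a shift of -0.25 on the log2 scale.

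Tpm1, which encodes alpha-tropomyosin, ran in the same direction with smaller differences. In KO cells it stood at 2782 CPM on ND, 2693 at 1M, 2243 at 2M and 469 at 4M. In Apoe cells it stood at 2240, 2148, 1938 and 1314 CPM. The KO libraries were 1.24, 1.25 and 1.16-fold higher on ND, 1M and 2M and 2.80-fold lower at 4M. A Tpm1 UMI was still seen in 85.6% of KO 4M cells, against 96.8% of Apoe 4M cells. With every cell thinned to 2900 UMIs these shares were 56.8% in KO 4M and 89.0% in Apoe 4M.

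Tpm4, whose product is a low molecular weight tropomyosin of the non-muscle cytoskeleton, had the widest excess in KO up to 2M. It was at 353, 325, 480 and 209 CPM in KO on ND, 1M, 2M and 4M, and at 198, 228, 282 and 266 CPM in Apoe. The KO to Apoe ratio was 1.79 (1.70 to 1.88) on ND, 1.43 at 1M, 1.70 at 2M and 0.787 (0.748 to 0.828) at 4M. With trimmed-mean (TMM) factors in place of library totals the 4M ratio was 0.924. At 4M the 2 libraries thus lay close together, unlike those of Tpm1 and Tpm2.

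Cald1, which encodes caldesmon, hardly differed between the genotypes before 4M. Its level was 1224, 1366, 1340 and 171 CPM in KO on ND, 1M, 2M and 4M, and 1339, 1364, 1348 and 1477 CPM in Apoe. The ratio was 0.914 on ND, 1.00 at 1M (0.980 to 1.02) and 0.994 at 2M (0.976 to 1.01), and Cald1 was 8.61-fold lower in KO at 4M. Apoe 4M held the highest Cald1 level of the 8 libraries and KO 4M the lowest. A transcript on the opposite strand that overlaps Cald1, Gm13861, was listed in 3 Apoe libraries at 6.4 to 13.4 CPM and at 0 in the KO libraries. Whether the counting used strand is not stated, so reads of the 2 cannot be told apart.

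Synpo2, which encodes synaptopodin-2, was lower in KO on all 4 diets. KO cells held 377, 342, 288 and 15.2 CPM on ND, 1M, 2M and 4M, against 418, 426, 380 and 367 CPM in Apoe cells. The KO to Apoe ratio was 0.901, 0.802 and 0.759 on the first 3 diets, and Synpo2 was 24.1-fold lower (21.3 to 27.3) in KO at 4M. A Synpo2 UMI was found in 8.8% of KO 4M cells, against 76.1% of Apoe 4M cells. The 8.8% is close to the 5% below which a gene is listed at 0, so the 24.1-fold is not read as exact. Gm43283, which overlaps Synpo2 on the same strand, was listed in KO ND alone, at 5.2 CPM.

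Mylk4, which encodes a kinase of the myosin light chain kinase family, had the largest relative difference before 4M. It stood at 24.2, 36.6 and 12.2 CPM in KO on ND, 1M and 2M and was listed at 0 in KO 4M, where a listing at 0 means that under 5% of cells held a UMI. In Apoe it stood at 123, 112, 114 and 85.4 CPM. The KO libraries all lay below the lowest Apoe library. Mylk4 was 5.07-fold lower (4.48 to 5.76) in KO on ND, 3.07-fold lower at 1M. The KO 2M level was not above the background described below, and the 9.40 that its 12.2 CPM give against Apoe 2M is not read as an exact fold. A Mylk4 UMI was seen in 18.4%, 25.0% and 8.3% of KO cells on ND, 1M and 2M, against 62.5%, 58.0%, 50.3% and 39.4% of Apoe cells on ND, 1M, 2M and 4M.

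Pln was listed in 2 libraries only, KO 1M at 11.3 CPM and KO 2M at 12.8 CPM. It was listed at 0 in KO ND, KO 4M and all 4 Apoe libraries, so no fold is given. A Pln UMI was in 8.4% of KO 1M cells (95% interval 6.9 to 10.0%) and in 8.1% of KO 2M cells, close to the 5% below which a gene is listed at 0. Pln overlaps Cep85l on the opposite strand, and Cep85l was listed in all 8 libraries at 8.2 to 13.8 CPM.

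A cell was set apart when it held at least 3 markers of Schwann cells, lymphocytes, endothelium or macrophages. This was so for 20 cells of KO 1M, 3 of KO 4M and 0 of any other library. Only KO 1M (6) and KO 4M (3) listed as many as 3 macrophage markers. No library listed more than 1 endothelial or 1 Schwann marker, or any lymphocyte marker. The 0 of the other libraries was therefore fixed by which markers passed the 5% listing limit. Schwann cells, lymphocytes and endothelium could not be found by their own markers in any library. In the 20 KO 1M cells (median 10223 UMIs, against 8861 in the rest) Tpm1 was in 100% of cells at 942 CPM, Tpm2 in 100% at 2560 CPM and Cald1 in 75% at 323 CPM. Synpo2 was in 35% of them at 53.1 CPM and Tpm4 in 70% at 230 CPM. In KO 4M these genes lay lower, at 469 CPM for Tpm1, 265 for Tpm2, 171 for Cald1, 15.2 for Synpo2 and 209 for Tpm4. The 20 cells come from another library, in which Tpm2 stood at 5695 CPM, so this does not show that the KO 4M levels are background. The background of KO 4M itself is not known, and folds that rest on KO 4M are not read as exact. Mylk4 was in 2 of the 20 cells, or 10%, a share that the 8.3% of KO 2M cells did not exceed, so that level cannot be set above this background. This background is loosely known, since it rests on 20 cells of another library, deeper than KO 2M (median 7631 UMIs). All 20 cells held Tpm2, and the part of doublets was not tested. Whether the Mylk4 shares of KO ND (18.4%) and KO 1M (25.0%) exceed it was not tested. Pln was in 0 of the 20 cells, which allows a share of up to 15%, so its 8.4% of KO 1M cells cannot be set above this background. Leaving the cells set apart out could change the KO to Apoe ratios at 1M and 4M only, and moved none of these beyond its counting interval.

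**Figure D1:**
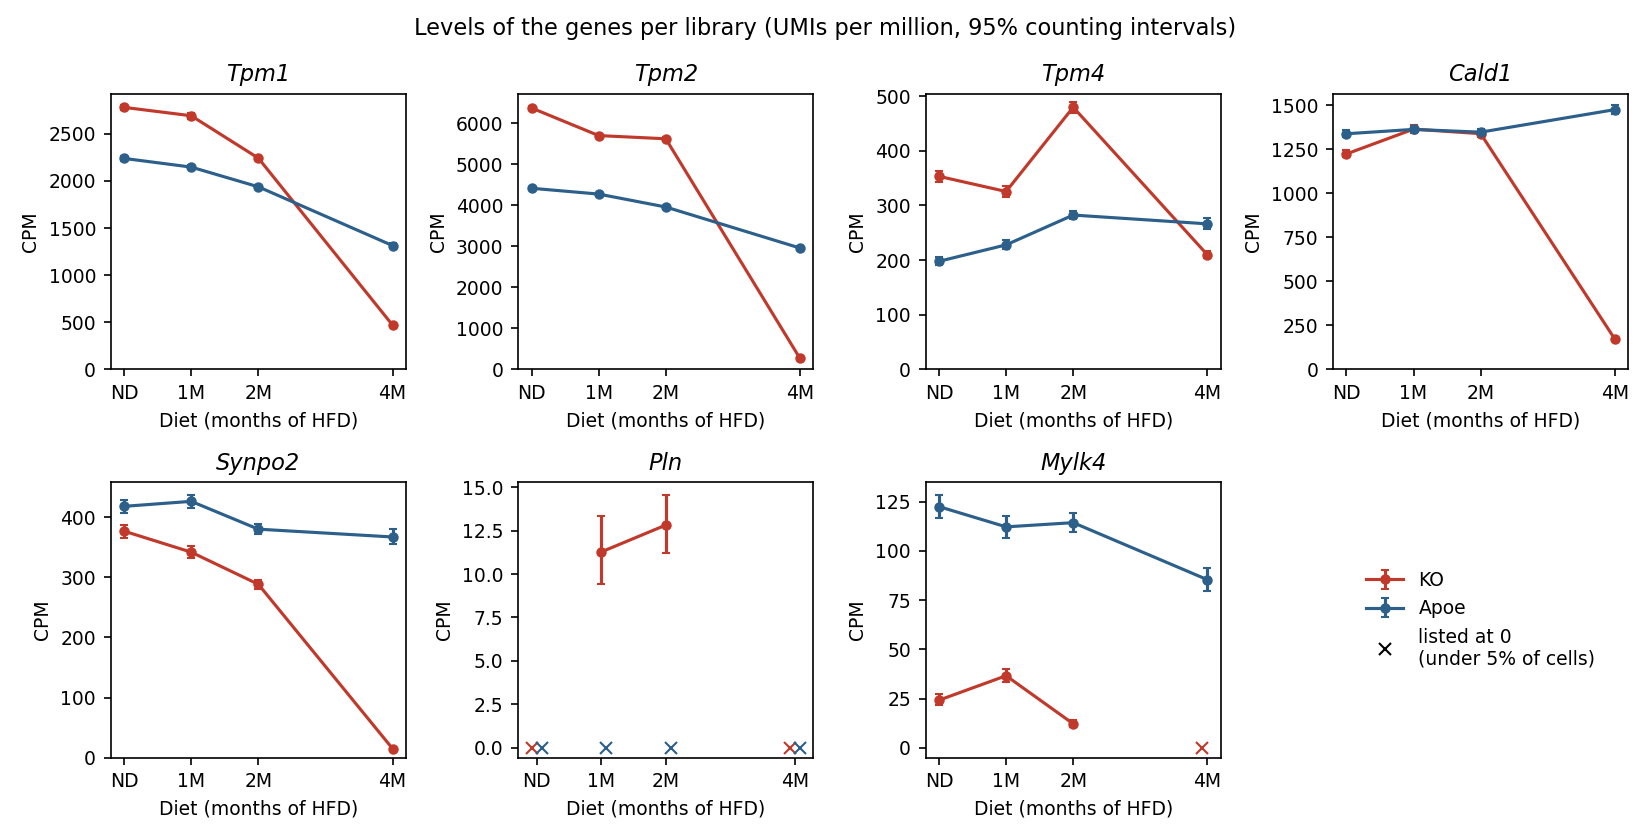
Level of each of the 7 genes in CPM (vertical axis, from 0) against months of high fat diet (horizontal axis, ND at the left), in KO (red) and Apoe (blue) libraries, with 95% counting intervals and crosses for a gene listed at 0. Tpm1, Tpm2 and Tpm4 are higher in KO up to 2M, and Mylk4 is lower in KO throughout. Tpm1, Tpm2, Cald1 and Synpo2 have their lowest level in KO 4M, where Mylk4 is listed at 0.

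Over ND, 1M and 2M the KO and Apoe libraries did not overlap for 5 of the 6 genes listed in all of them. Tpm1, Tpm2 and Tpm4 were higher in every KO library than in any Apoe library, as were 15.0% of the 8619 genes listed in these 6 libraries. For Tpm1 the margin was 2243 CPM in KO 2M against 2240 CPM in Apoe ND. Synpo2 and Mylk4 were lower in every KO library, as were 20.2% of genes. Over all 4 diets 0 of the 5 members listed throughout kept apart, against 2.55% of 7994 genes higher and 6.91% lower in KO. Whether the members' shares exceed those of all genes was not tested, and the choice of these 3 diets was made with the 4M values known.

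At 4M alone, 4 of the 5 members listed in both libraries (Tpm1, Tpm2, Cald1 and Synpo2) were at least 2-fold lower in KO, against 18.2% of 8624 genes. On ND, 1M and 2M this held for Mylk4 alone of 6 members, against 1.56%, 0.899% and 2.50% of genes. No member was at least 2-fold higher in KO on any diet, against 0.864%, 0.866%, 1.31% and 7.00% of genes on ND, 1M, 2M and 4M.

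**Figure D2:**
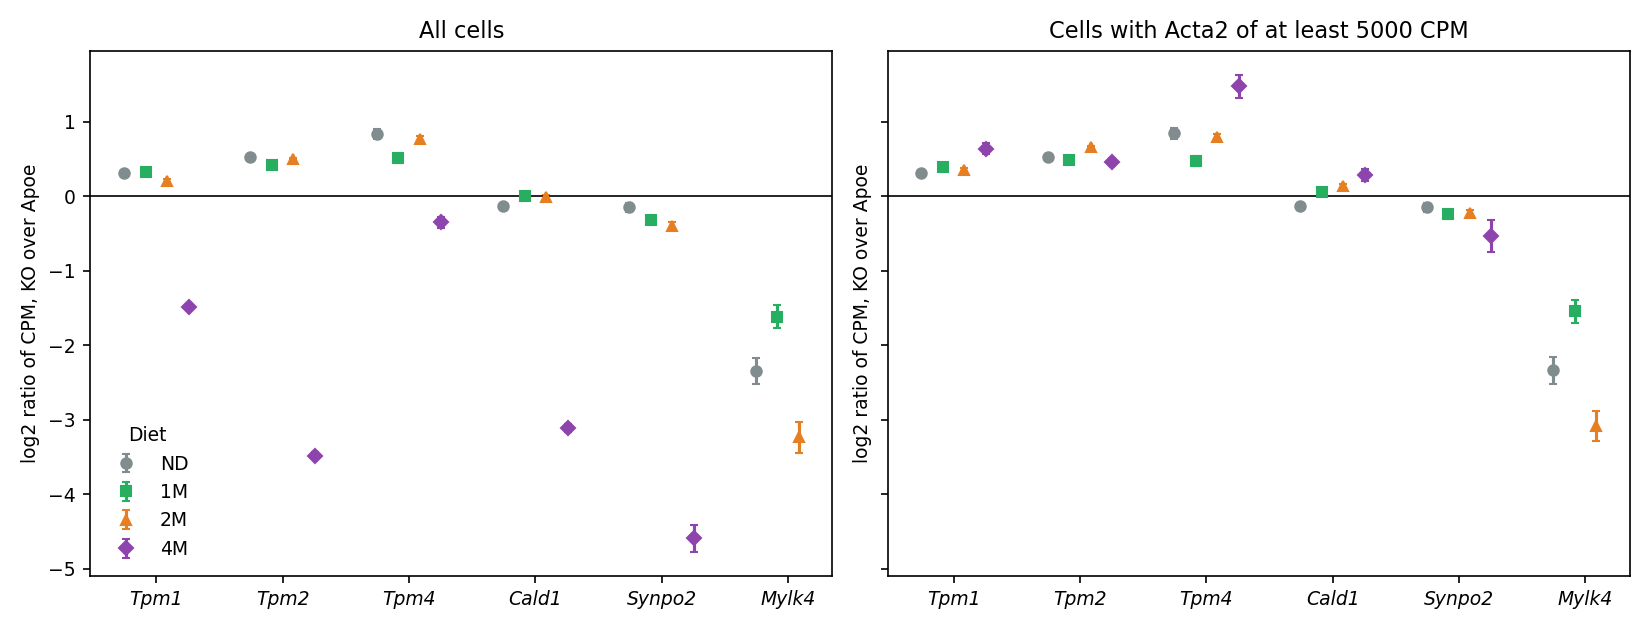
Ratio of CPM, KO over Apoe, on a log2 axis for 6 genes and each diet, over all cells (left) and over cells with an Acta2 level of at least 5000 CPM (right), with 95% counting intervals and a line at equal levels. Over all cells the 4M ratios of Tpm1, Tpm2, Cald1 and Synpo2 lie far below those of the other diets (Synpo2 at -4.59), and in cells with high Acta2 they lie between -0.53 and 0.64.

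The genotype effect over the 4 diets was tested with limma on the mean log2 value per library, with diet as a factor. The effect is the mean log2 value of KO minus that of Apoe, with cells at 0 counted, and is no fold change. Of the 9253 genes tested, 14 (0.151%) passed an adjusted p of 0.05, of which 2 were higher (0.0216%) and 12 lower in KO (0.130%). Of the 6 members tested, Mylk4 alone passed, 0.58 lower in KO (effect -0.58, SE 0.035, adjusted p = 0.0402) and lower in KO on 4 of 4 diets. Pln was seen in too few cells to be tested. The other members did not pass, with effects of 0.38 (SE 0.10, adjusted p = 0.248) for Tpm4, -0.11 (0.880) for Tpm1, -0.46 (0.793) for Tpm2, -0.64 (0.603) for Cald1 and -0.51 (0.501) for Synpo2, adjusted p in brackets. The median effect of the 6 was -0.49, against 0.01 over all genes tested, and without the 4M libraries it was 0.10 (3 of 6 positive), against 0.0045 over all genes.

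Without the 4M libraries the same fit called 240 genes (2.59%), with 90 higher (0.973%) and 150 lower in KO (1.62%), and Mylk4 again alone of the members (effect -0.60, SE 0.041, adjusted p = 0.0345). Tpm2 turned to 0.45 (SE 0.068, adjusted p = 0.0704) and Tpm1 to 0.25 (SE 0.061, adjusted p = 0.113), both higher in KO on 3 of 3 diets, while Tpm4 was at 0.48 (SE 0.070, adjusted p = 0.0687). Synpo2 was at -0.19 (adjusted p = 0.188) and Cald1 at -0.06 (adjusted p = 0.119). The call for Mylk4 ended without the ND libraries (adjusted p = 0.205), without the 1M libraries (0.267) and without the 2M libraries (0.375), with effects between -0.61 and -0.55. On log2(CPM + 1) of library sums the effect was -3.36 (adjusted p = 0.39) and on log2(CPM + 0.1) it was -4.23 (adjusted p = 0.49), lower in KO but not past the threshold.

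The partners of these genes were read in 4 lists. For the genotype effect over all diets, 0 genes passed in the lists for the thin filament (13 tested), the calcium store (12), myosin phosphorylation (18) and the dense body (12). Without the 4M libraries some of these genes passed. Higher in KO were Tpm3, the remaining tropomyosin gene (0.17, adjusted p = 0.0456), and Asph, which is known for its products junctin and junctate at the calcium store (0.18, adjusted p = 0.0433). Lower in KO were the calcium release channel Itpr1 (-0.16, adjusted p = 0.0412), the non-muscle myosin Myh10 (-0.42, adjusted p = 0.0394), the focal adhesion protein gene Zyx (-0.22, adjusted p = 0.0345) and Synpo, a paralogue of Synpo2 (-0.36, adjusted p = 0.0345). Synpo was at 77.7, 62.6, 55.1 and 62.5 CPM in KO on ND, 1M, 2M and 4M and at 140, 124, 112 and 183 CPM in Apoe, with every KO library below every Apoe library.

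**Figure D3:**
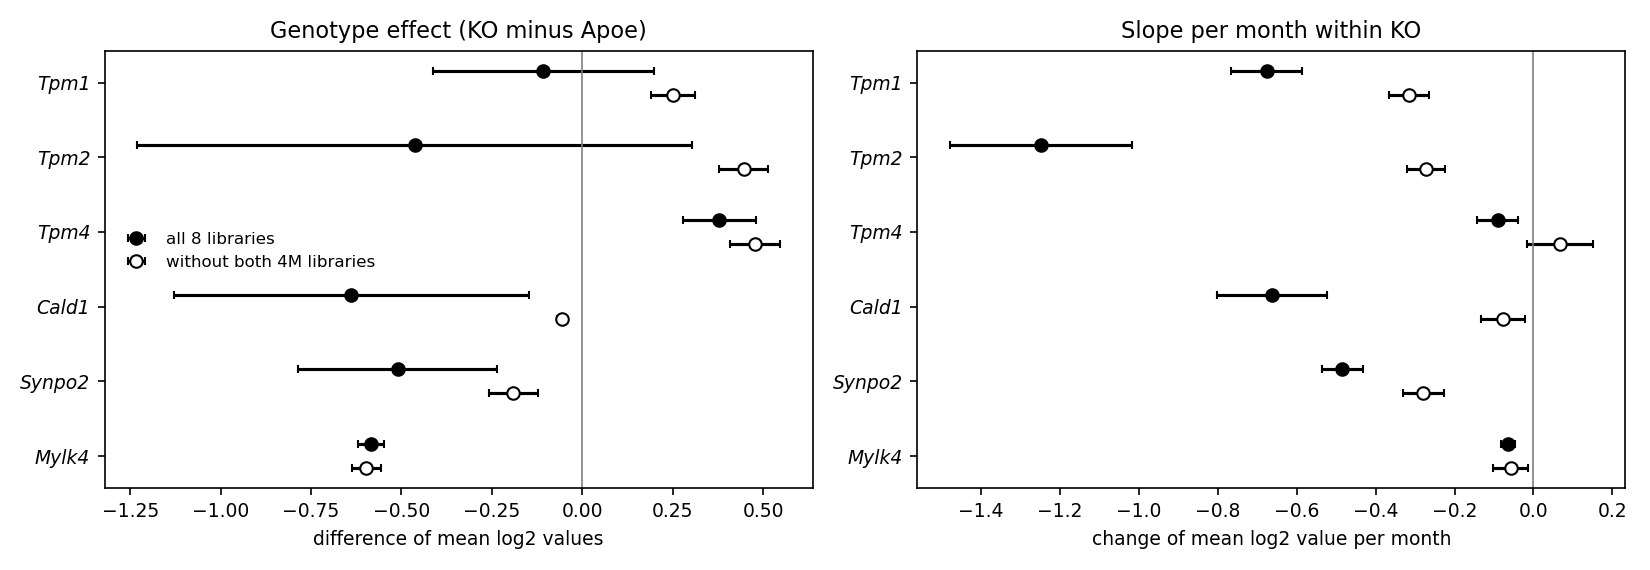
Effect of genotype (left, KO minus Apoe, difference of mean log2 values) and slope per month within KO (right, change of mean log2 value per month) for 6 genes, as estimate with its standard error, from all 8 libraries (filled) and without both 4M libraries (open). The genotype effect of Mylk4, which entered at 0 in KO 4M, stays near -0.6 in both fits. Those of Tpm1 and Tpm2 lie below 0 with the 4M libraries and above 0 without them.

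Within KO, 4 of the 6 members tested fell with months of diet, and these calls depended on which libraries entered. From the time-course tables, the slope per month passed in 2084 of 9253 genes (22.5%), of which 1455 fell (15.7%). Tpm1 fell by 0.68 per month in mean log2 value (SE 0.090, adjusted p = 0.0192), Tpm2 by 1.25 (SE 0.23, adjusted p = 0.0295), Cald1 by 0.66 (SE 0.14, adjusted p = 0.0355) and Synpo2 by 0.48 (SE 0.052, adjusted p = 0.0133). Mylk4 had a slope of -0.06 (adjusted p = 0.0535) and Tpm4 of -0.09 (adjusted p = 0.235), and neither passed. Without the KO 4M library 0 genes passed, and the slopes were -0.32 for Tpm1, -0.27 for Tpm2, -0.08 for Cald1 and -0.28 for Synpo2 (adjusted p from 0.181 to 0.462). Without the ND libraries the 4 calls also ended, though the slopes lay between -1.62 (Tpm2) and -0.57 (Synpo2), with adjusted p from 0.0741 to 0.079. They ended without the 1M libraries (adjusted p from 0.169 to 0.219) and held without the 2M libraries. In KO 4M, relative to KO ND, Tpm2 was 24.1-fold lower, Synpo2 24.7-fold lower, Cald1 7.14-fold lower, Tpm1 5.93-fold lower and Tpm4 1.69-fold lower. As above, folds that rest on KO 4M are not read as exact. Being at least 2-fold lower there, as 4 of these 5 were, held for 18.6% of 8852 genes, and being at least 2-fold higher, as 0 of the 5 were, for 9.20%. In KO 2M, relative to KO ND, the ratio was 0.806 for Tpm1, 0.882 for Tpm2, 0.766 for Synpo2, 1.09 for Cald1 and 1.36 for Tpm4.

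Within Apoe 0 of 9253 genes (0.00%) passed for the slope, and 1165 had an unadjusted p under 0.05. Tpm1 had a slope of -0.27 (SE 0.090, adjusted p = 0.321) and Tpm2 of -0.28 (SE 0.23, adjusted p = 0.726), and without the 4M libraries they were -0.17 and -0.16 (adjusted p = 0.439 each). In Apoe 4M, relative to Apoe ND, the ratio was 0.587 for Tpm1, 0.670 for Tpm2, 0.697 for Mylk4, 0.878 for Synpo2, 1.10 for Cald1 and 1.35 for Tpm4. The difference between the KO and Apoe slopes passed in 0 genes (0.00%), with 1954 at an unadjusted p under 0.05. For the members it was -0.97 for Tpm2, -0.60 for Cald1, -0.40 for Tpm1 and -0.37 for Synpo2 (adjusted p = 0.226 each). Without the 4M libraries it was -0.12 for Tpm2, 0.0035 for Cald1, -0.14 for Tpm1 and -0.15 for Synpo2 (adjusted p from 0.906 to 1).

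The partner lists within KO moved mostly in the same direction as the members. In the thin filament list 9 of 13 tested genes fell and 2 rose with months of diet, against 15.7% falling and 6.80% rising of all genes. Those that fell included the smooth muscle actin gene Acta2 (-1.62 per month, adjusted p = 0.0319), the calponin gene Cnn1 (-1.11, adjusted p = 0.0257) and the leiomodin gene Lmod1 (-0.70, adjusted p = 0.0253), whose product nucleates actin. Those that rose were Tpm3 (0.14, adjusted p = 0.0358) and the tropomodulin gene Tmod3 (0.02, adjusted p = 0.0476), whose product caps slow-growing actin ends. In the calcium store list 6 of 12 fell, among them Atp2a2, the pump that phospholamban inhibits (-0.30, adjusted p = 0.00971), and Itpr1 (-0.10, adjusted p = 0.0141), and 0 rose.

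In the myosin phosphorylation list 13 of 18 fell and 0 rose. Mylk, the principal myosin light chain kinase gene of smooth muscle, fell by 0.84 per month (adjusted p = 0.0287), the regulatory light chain gene Myl9 by 1.46 (adjusted p = 0.0326) and Ppp1r14a, which encodes an inhibitor of myosin phosphatase, by 0.77 (adjusted p = 0.0227). Mylk was at 1282, 1369, 1218 and 56.2 CPM in KO on ND, 1M, 2M and 4M and at 1005, 1120, 1083 and 1001 CPM in Apoe. Before 4M, Mylk was thus higher in KO on each diet while Mylk4 was lower. In the dense body list 7 of 12 fell and 0 rose, led by the filamin gene Flna, which fell by 1.00 per month (adjusted p = 0.00991), a known partner of synaptopodin-2. All of these slopes lost their call without the KO 4M library.

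Of the 4 tropomyosin genes, Tpm2 kept nearly the same share of tropomyosin UMIs in every library but KO 4M, from 62.7% to 66.1%. Tpm2 made up 22.7% of tropomyosin UMIs in KO 4M (95% interval 22.1 to 23.3%), against 63.1% in Apoe 4M. Tpm1 made up 40.2% in KO 4M and 28.1% in Apoe 4M, Tpm3 19.1% in KO 4M and 3.09% in Apoe 4M, and Tpm4 18.0% in KO 4M and 5.69% in Apoe 4M. On ND the Tpm2 share was 66.1% in KO and 63.4% in Apoe, and the Tpm4 share 3.66% in KO and 2.84% in Apoe. Outside KO 4M the Tpm4 share reached 5.63% in KO 2M and 5.69% in Apoe 4M, and that of Tpm1 ranged between 26.3% in KO 2M and 32.2% in Apoe ND. The summed tropomyosin level was 9636, 8863, 8513 and 1166 CPM in KO on ND, 1M, 2M and 4M and 6962, 6763, 6305 and 4680 CPM in Apoe. Tpm3, whose products include non-muscle tropomyosins, was at 133, 149, 173 and 223 CPM in KO and at 113, 118, 130 and 145 CPM in Apoe. How reads shared by these paralogues were counted is not stated, and the counts are tags of transcripts, which do not tell the isoforms of a gene apart.

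**Figure D4:**
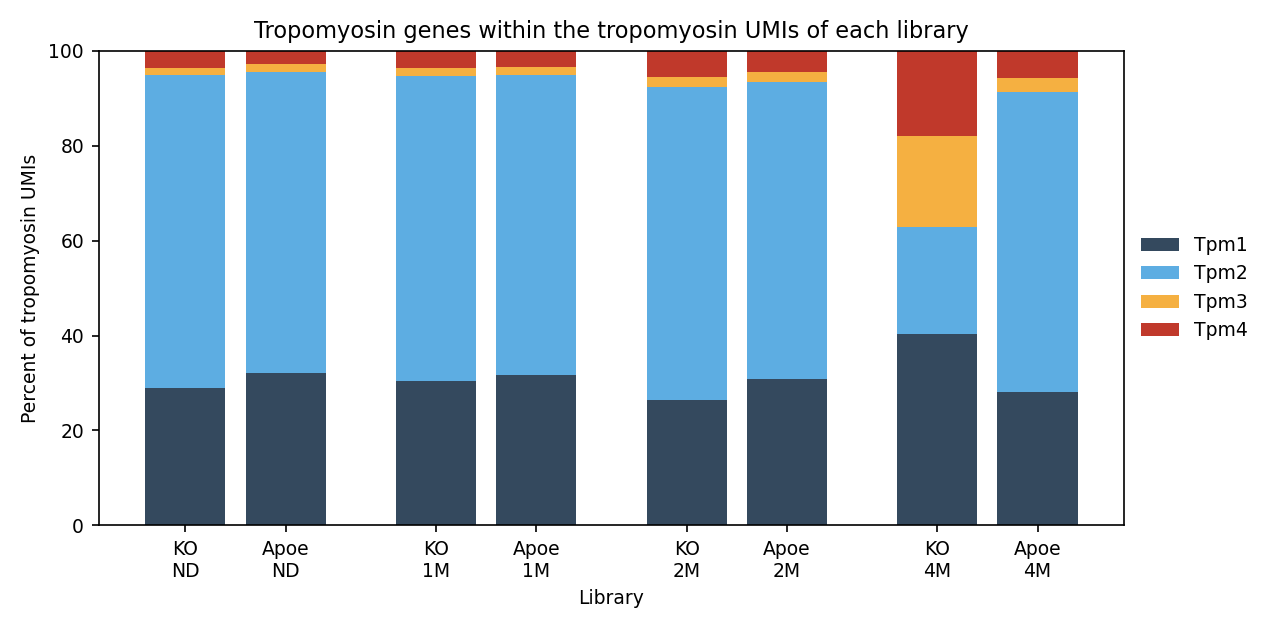
Percent of tropomyosin UMIs (vertical axis) from Tpm1, Tpm2, Tpm3 and Tpm4 in each library, with KO left of Apoe for each diet. Tpm2 makes up 62.7% to 66.1% in 7 libraries and 22.7% in KO 4M, where Tpm3 and Tpm4 reach 19.1% and 18.0%.

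The levels at 4M were also read by how much Acta2 the same cell held, a division chosen after the values were seen. In KO 4M, 1424 of 1577 cells (90.3%) held under 1000 CPM of Acta2, 74 held 1000 to 5000 CPM and 79 (5.0%) held at least 5000 CPM. In Apoe 4M, 139 cells (11.3%) held under 1000 CPM and 959 (77.7%) at least 5000 CPM. In KO 2M, 99 cells (4.4%) held under 1000 CPM. Acta2 is continuous, so these are ranges and not cell types, and 42 KO 4M cells and 83 Apoe 4M cells lay within 20% of a limit.

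Acta2 was itself at 802 CPM in KO 4M and 11932 CPM in Apoe 4M and followed Tpm2 across cells, so the values in cells with at least 5000 CPM of it only describe the cells so chosen. Tpm2 was at 5338 CPM in KO 4M and 3869 CPM in Apoe 4M, 1.38-fold higher in KO (1.33 to 1.43). Tpm1 was at 2583 CPM in KO 4M and 1659 CPM in Apoe 4M, 1.56-fold higher, and Tpm4 at 668 CPM in KO 4M and 240 CPM in Apoe 4M, 2.78-fold higher (2.49 to 3.10). Cald1 was at 2269 CPM in KO 4M and 1855 CPM in Apoe 4M, a ratio of 1.22, and Synpo2 at 331 CPM in KO 4M and 477 CPM in Apoe 4M, a ratio of 0.692. These KO 4M cells also held Col2a1, a cartilage collagen gene, at 1596 CPM in 98.7% of cells, against 58.0 CPM in 33.9% of such cells of Apoe 4M, and the part of free RNA or of doublets was not tested. Their median depth was 7186 UMIs, against 11411 UMIs in the KO 4M cells under 1000 CPM.

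In the cells with under 1000 CPM of Acta2 the 5 members listed at 4M were lower than in the cells with high Acta2, in both genotypes, but for Tpm4 in Apoe hardly so. Tpm2 was at 72.5 CPM in KO 4M and 173 CPM in Apoe 4M, Cald1 at 82.9 CPM in KO 4M and 207 CPM in Apoe 4M, and Synpo2 at 4.0 CPM in KO 4M and 21.1 CPM in Apoe 4M. Tpm1 was at 385 CPM in KO 4M and 250 CPM in Apoe 4M, and Tpm4 at 181 CPM in KO 4M and 237 CPM in Apoe 4M. Col2a1 was at 12445 CPM in KO 4M and 14942 CPM in Apoe 4M in this range. On ND, 1M and 2M, 98.9%, 94.9% and 89.9% of KO cells held at least 5000 CPM of Acta2. The shares of Apoe cells were 99.0%, 99.6% and 98.5%, so nearly the same cells were read again and Mylk4 could hardly change. It was at 24.5, 38.6 and 13.8 CPM in these KO cells, against 124, 112 and 116 CPM in Apoe. The KO 2M value is again not set above the background taken from KO 1M. By range of Acta2 from low to high, a Mylk4 UMI was in 0%, 2.3% and 9.1% of KO 2M cells. These ranges held 99, 129 and 2025 cells, with median depths of 12210, 7767 and 7506 UMIs. For Pln the shares in KO 2M were 0%, 3.9% and 8.8%. Whether these shares differ was not tested.

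**Figure D5:**
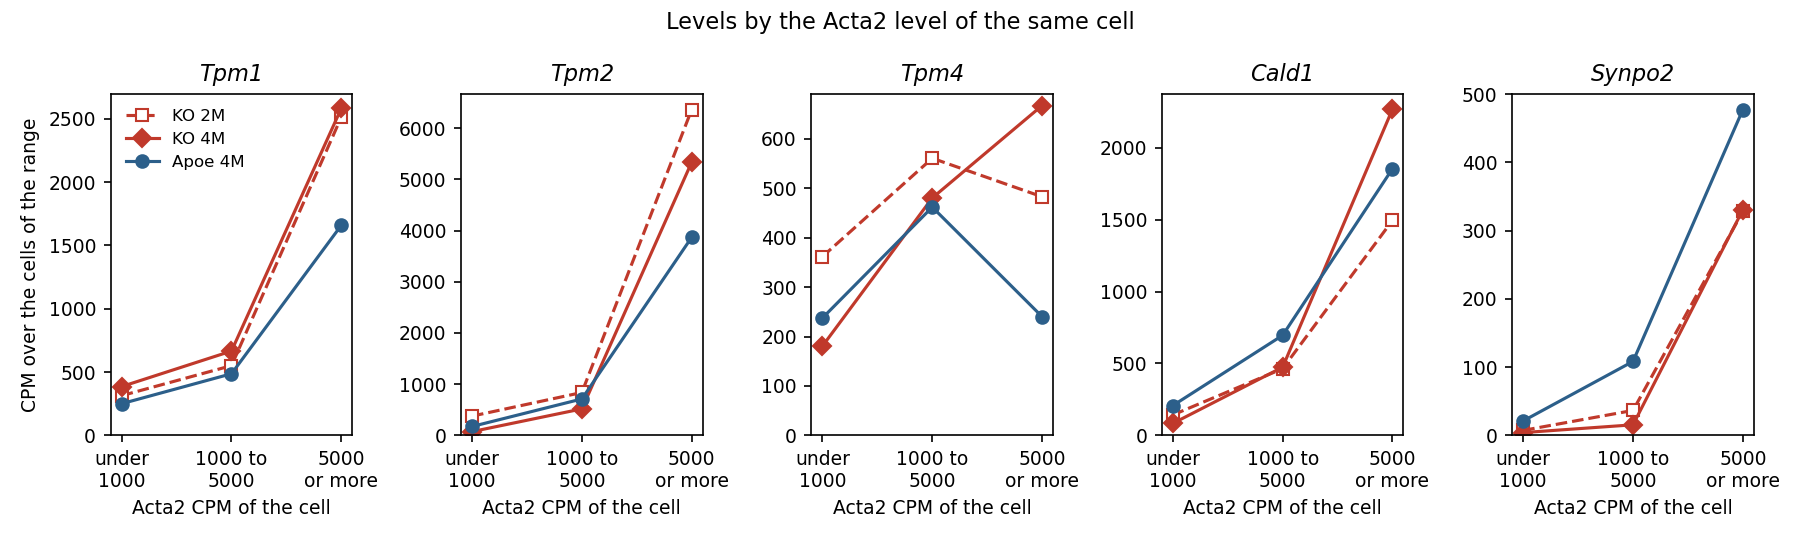
Level in CPM of 5 genes (vertical axes, from 0) in cells grouped by their own Acta2 level (horizontal axis), for KO 2M (open squares), KO 4M (diamonds) and Apoe 4M (circles). Tpm1, Tpm2, Cald1 and Synpo2 climb steeply with Acta2 in all 3 libraries, while Tpm4 in Apoe 4M is at 462 CPM in the middle range and 240 CPM in the top range.

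Across cells, Tpm2 followed Acta2 closely, with Pearson correlations of log values from 0.66 (Apoe 1M, 1488 cells) to 0.89 (KO 2M, 2253 cells). Tpm1 with Tpm2 ranged from 0.41 in Apoe 1M to 0.78 in KO 2M. Cald1 with Acta2 was at 0.66 in KO 4M, against 0.21 in KO ND, and at 0.75 in Apoe 4M, against 0.25 in Apoe ND. Tpm4 with Acta2 was at 0.39 in KO 4M and -0.05 in KO ND and did not follow the other tropomyosins in most libraries. These values are descriptions, since cells of a library share their depth and, in the late libraries, span the whole range of Acta2. In KO 4M the tenth of cells with the most Tpm2 UMIs held 81.7% of them, against 27.1% in Apoe 4M, and for Tpm4 the figures were 35.4% in KO 4M and 37.0% in Apoe 4M.

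Genes whose level over the 8 libraries was most like that of a member were ranked by Pearson's r of log2(CPM + 1) among 3010 genes. For Synpo2 these were Itga8, an integrin subunit gene (r = 0.9985), the adenylate cyclase gene Adcy5 (0.997) and the smoothelin gene Smtn (0.9968). For Tpm2 they were Ccdc107, Csrp1, a LIM protein gene of smooth muscle, and Anxa6, an annexin gene, with r from 0.9978 to 0.9982. For Cald1 they were Camk2n1, Pja2 and Nbeal1, and for Tpm1 Laptm4b, Gtf2a2 and Ctbp1. Tpm4 stood nearest to Psme2, Nudt9 and Cox6b1 (r from 0.9705 to 0.9882), and Mylk4, over its 7 libraries, to the transcription factor genes Egr1 and Foxo1 and to Phldb1. An r over 0.95 was reached by 341 genes with Synpo2, 314 with Cald1, 27 with Mylk4 and 10 with Tpm4. Without KO 4M it was reached by 10 genes with Synpo2, 0 with Cald1 and 35 with Tpm4. Of the 3 genes named for each member, 0 remained among the 3 without KO 4M for Tpm2, Tpm4 and Cald1, 1 for Synpo2 and 2 for Tpm1.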

How the data were processed

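Per the file names in the labels, the authors deposited log2 values after trimmed-mean (TMM) scaling of each cell. The tools in the submitters' processing notes are UMI-tools, STAR, featureCounts and Subread 1.6.0, and the build is GRCm38, with no annotation release. Undoing the log gave, in 100% of entries, a whole number of steps of the cell's lowest value (tolerance 0.01), taken as UMIs. Each library is in a diet table and a time-course table, with 0 differing UMIs, and genes in under 5% of its cells are listed at 0. Levels are UMIs per 1000000 (CPM), with exact Poisson, binomial (Clopper-Pearson) or conditional 95% intervals. No cell was removed and no doublet caller was run.

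Symbols came from GENCODE vM21 (11439 of 11447 identifiers matched). For each library the mean log2 value of a gene entered limma (version 3.58.1, R 4.3.3) if its share of cells averaged at least 5%, which left 9253 genes, with Benjamini-Hochberg adjustment. The design foresaw a count test for counts and limma for log values. The genotype fit used the diet tables (3 residual degrees of freedom), and the slope fit used the time-course tables (4), which were normalized separately. The fits were tested on simulated data. The members and lists were chosen with earlier results of these data known. The named genes are the 7 members, of each list at most 5 genes that passed a test, by size, and any count of 5 or fewer, and the 3 genes most like each member. A few list genes that passed are not reported here.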

Additional observations from a re-analysis of the deposited data

How the results depend on the processing

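Of 228 results of single members under an alternative setting, 186 kept their direction and their side of the threshold, 25 lost a call, 3 gained a call and 14 turned direction. The 186 include results that passed in neither setting, so they do not measure how stable the calls are. Of the calls, the genotype effect of Mylk4 passed under 3 of 8 alternatives. The KO slopes of Tpm1, Tpm2, Cald1 and Synpo2 passed under 5 of 10 each. The count of 14 genes for the genotype effect was 5 on log2(CPM + 1) and 9 on log2(CPM + 0.1) of library sums, and 0 to 240 with a diet left out. The count of 2084 genes for the KO slope was 0 to 3060 with a diet left out (0 without 4M, ND or 1M), 0 without the KO 4M library and 87 with the rank of time, where no member passed. The Apoe slope count was 1 without KO 4M, and the difference of slopes reached 7 genes without the 2M libraries (0 to 7). Without the 4M libraries the genotype effects of Tpm2 and Tpm1 turned to 0.45 and 0.25, the upper ends of ranges from -0.82 and -0.27 with a diet left out. The KO slope of Tpm4 turned to 0.067 without 4M or without KO 4M (range from -0.11). The Apoe slope of Cald1 turned to 0.034 on both CPM scales, and that of Tpm4 to -0.0035 in the other tables and -0.019 without ND (range to 0.091). Differences of slopes turned for Tpm2 (0.0050) and Tpm4 (0.053) without KO 4M, for Cald1 without 4M (0.0035, range from -0.84), and for Mylk4 on log2(CPM + 1) (-1.15), on log2(CPM + 0.1) (-1.99) and without ND (-0.013, range to 0.022). The cause was not tested. With TMM factors 15 of 23 KO to Apoe ratios stayed within their counting interval and 2 moved across 1. Thinning to 2900 UMIs moved 45 of 49 shares. No cell held fewer than 2905 UMIs, so each share could only fall. The count therefore does not measure how depth differences between libraries act on the shares. The genotype fit compared KO with Apoe within each diet. The labels give no replicate numbers by which libraries could be paired otherwise.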

Other observations

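Some partner genes ran against the members at 4M, and those named here were singled out after their values were seen. The calcium release channel genes Itpr2 and Itpr3 were listed in KO 4M alone, at 18.9 and 13.8 CPM, and at 0 in the other 7 libraries, while Itpr1 was at 38.6 CPM in KO 4M and 110 CPM in Apoe 4M. A listing at 0 means under 5% of cells, and KO 4M had the highest median depth (10988 UMIs, against 6966 in Apoe 4M). Genes as low as Itpr2 and Itpr3 are therefore listed more easily in KO 4M, and the part of depth was not tested. The cytoplasmic actin gene Actg1 was at 2471 CPM in KO 4M and 811 CPM in Apoe 4M, whereas Actb was at 6101 CPM in KO 4M and 7210 CPM in Apoe 4M. Calr, the calcium-binding chaperone gene of the endoplasmic reticulum, was at 614 CPM in KO 4M and 488 CPM in Apoe 4M. These are values of single libraries, with no test.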
